A study of Triticum aestivum with 4 samples.

Results

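The miR395, miR399, miR827 and miR2111 families are plant miRNAs known for their response to sulfate and phosphate supply. Members were taken from the deposited miRNA table by name, as miRNAs whose name starts with miR395, miR399, miR827 or miR2111 followed by a letter, a hyphen or nothing. This gave 4 of the 348 listed miRNAs, 1 per family, namely miR395b, miR399b, miR827 and miR2111a-3p. miR3950 and miR3954 begin with the same characters but are other families by this rule and were left out.

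The libraries were made from crowns, the stem base with the shoot apical meristem, of the semi-winter wheat cultivar Shimai 22, sown in autumn and grown in the field. All 4 groups share this cultivar and field and are labelled by stage: three-leaf, winter dormancy, spring green-up and jointing. Each stage has 1 small RNA library, made from an equal mix of RNA from 3 biological replicates. No difference between these libraries therefore has a replicate check, and every interval below covers counting error only. The authors also ran quantitative RT-PCR on some miRNAs, which is not used here. Dates, temperatures and soil or tissue levels of phosphate and sulfate are not among the labels, so stage, season and nutrient supply cannot be told apart here.

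In Arabidopsis, miR399 and miR827 accumulate when phosphate is short. miR399 acts on transcripts of PHO2, a ubiquitin-conjugating enzyme that lowers phosphate transporters, and it can move from shoot to root through the phloem. miR827 targets NLA, a ubiquitin ligase of the same pathway, in Arabidopsis, and transporters of the SPX-MFS type in rice. miR395 accumulates under sulfate shortage in Arabidopsis and targets ATP sulfurylases, which activate sulfate for assimilation, and a sulfate transporter. miR2111 also responds to phosphate shortage in Arabidopsis. In Lotus its 5p strand targets the kelch F-box gene TML, a brake on nodulation.

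The sequences listed for the 4 members are shown because the families are defined by them and because the miR2111 entry is the strand named 3p. Each is written 5′ to 3′ with bases 2 to 8, the seed, in capitals. Plant miRNAs pair with their targets along nearly their whole length, so the seed serves here only to compare members.
miR395b: uGAAGUGUuugggggaacuc
miR399b: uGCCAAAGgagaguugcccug
miR827: uUAGAUGAccaucagcaaaca
miR2111a-3p: gUCCUCGUguugcauucccu

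miR399b and miR827 are 21 nt long, as are 56.6% of the 348 listed miRNAs, and miR395b and miR2111a-3p are 20 nt, a length that 4.60% have. miR395b, miR399b and miR827 begin with U, as do 43.7% of listed miRNAs, whereas miR2111a-3p begins with G (14.4%). None of the 4 shares its seed with another listed miRNA. No listed miRNA was identical to a member, contained in it or within 3 mismatches of it, with a shift of up to 2 bases allowed. The closest was 7 mismatches away for miR395b, miR399b and miR827 and 8 for miR2111a-3p, where the authors allowed fewer than 2 mismatches between a read and a known miRNA.

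Values are RPM, tags per 1000000 mapped reads, not divided by length. The depth recovered from the values themselves was 20533460 to 21888525 mapped reads per library, and members' reads follow from it to within about 1 read. The listed miRNAs together took 14.3% of mapped reads in the three-leaf library, 13.6% and 10.7% in the dormancy and green-up libraries, and 6.89% in the jointing library. RPM of most miRNAs therefore moved down with stage, and changes are also given relative to the median miRNA. The jointing label was checked against phase-change miRNAs, which do not order the earlier stages. miR156a-5p, a juvenile-phase marker, had 294, 640 and 226.5 RPM before jointing and its lowest value of 74.2 RPM at jointing, and miR172a-5p, a marker of the reproductive phase, its highest of 492.1 RPM there. No miRNA is a marker of crown tissue, so the tissue label was not checked. In such pooled tissue, fewer cells of a type and less miRNA per cell cannot be told apart.

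The phosphate miRNA miR399b stood at 97.1 RPM at the three-leaf stage (about 2105 reads, 95% Wilson interval 93.1 to 101 RPM). It had 95.3 RPM at dormancy (1957 reads, 91.2 to 99.6 RPM), 33.7 RPM at green-up (738 reads, 31.4 to 36.2 RPM) and 40.0 RPM at jointing (832 reads, 37.4 to 42.8 RPM). On the deposited scale the three-leaf and dormancy libraries were high and both spring libraries low, and under the other scalings described below only green-up stayed more than 2-fold under dormancy. Only the intervals of the three-leaf stage and dormancy overlapped. Among the miRNAs above 0, miR399b ranked 82 of 275 in the three-leaf library and 77 of 281 in the dormancy library. It ranked 114 of 278 in the green-up library and 93 of 260 in the jointing library.

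The other phosphate miRNA, miR827, was measured at 89.9 RPM in the three-leaf library (1949 reads, 86.0 to 94.0 RPM), 56.8 RPM at dormancy (1166 reads, 53.6 to 60.1 RPM), 40.5 RPM at green-up (886 reads, 37.9 to 43.2 RPM) and 12.5 RPM at jointing (260 reads, 11.1 to 14.1 RPM). On the deposited scale each stage lay below the one before, and no intervals overlapped. The step from dormancy to green-up shrank under the other scalings described below. At jointing 13.9% of the three-leaf level was left. Its rank went from 87 at the three-leaf stage to 101, 104 and 145 at the later stages.

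The sulfate miRNA miR395b was the lowest of the members above 0 in each of the 4 libraries. Its level was 18.5 RPM in the three-leaf library (401 reads, 16.8 to 20.4 RPM), 13.8 RPM at dormancy (283 reads, 12.3 to 15.5 RPM), 9.7 RPM at green-up (212 reads, 8.47 to 11.1 RPM) and 2.6 RPM at jointing (54 reads, 1.99 to 3.39 RPM). On the deposited scale it too stood lower at each later stage without overlap of the intervals, and 14.1% of the three-leaf level was left at jointing. Its step from dormancy to green-up also shrank under the other scalings. Its values are the least precise of the 4 members, since the jointing value rests on 54 reads.

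miR2111a-3p had a listed value of 0 in the three-leaf, dormancy and green-up libraries and of 568.5 RPM at jointing (11825 reads, 558 to 579 RPM), rank 20 of 260. If a listed 0 means 3 reads or fewer, it allows up to 0.138 RPM in the three-leaf library, up to 0.146 RPM in the dormancy library and up to 0.137 RPM in the green-up library. On that reading the jointing value was at least 4107-fold higher than at the three-leaf stage, at least 3891-fold higher than at dormancy and at least 4148-fold higher than at green-up. No miRNA was listed with fewer than 13, 6 and 5 reads in these libraries apart from those at 0, and whether low counts had been set to 0 was not tested. With a 0 set to those smallest reads instead, the jointing value was 948-fold, 1946-fold and 2489-fold higher. The name rests on sequence similarity to a known plant miRNA, and whether these reads come from a wheat MIR2111 locus was not tested. No 5p strand of miR2111 is listed, so nothing here measures that strand. At jointing this single miRNA held 91.2% of the members' reads and 0.825% of the RPM of all listed miRNAs.

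**Figure D1:**
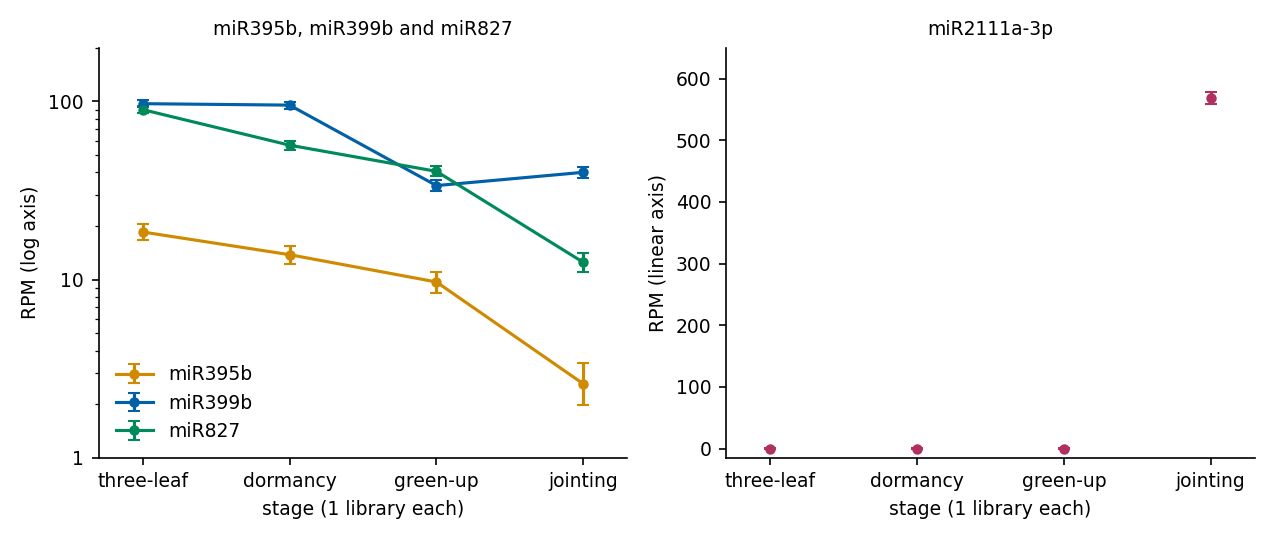
RPM of the 4 members in the 4 crown libraries (points, 1 library per stage), with 95% Wilson intervals for counting error as bars. The left panel has a log axis and shows miR395b and miR827 stepping down to 2.6 and 12.5 RPM while miR399b ends at 40.0 RPM; the right panel has a linear axis and shows miR2111a-3p at 0 in 3 libraries and at 568.5 RPM at jointing.

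Stages were compared in all 6 pairs with the fold and level thresholds of the study's methods: more than 2-fold, and more than 5 RPM in either library. Log2 changes are later over earlier stage, with exact binomial 95% intervals, and "passed" below means past these thresholds and nothing more. The p threshold of the study's pipeline was not applied, since with 1 library per stage it would compare libraries and not stages.

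Over the onset of winter, from the three-leaf stage to dormancy, none of the 3 members with more than 5 RPM passed, where 26.6% of all 252 tested miRNAs passed in either direction. The log2 change of miR399b was -0.03 (-0.12 to 0.06), an interval that includes 0. For miR395b it was -0.42 (-0.65 to -0.20) and for miR827 -0.66 (-0.77 to -0.56). The median of all tested miRNAs was -0.01, with quartiles of -0.56 and 0.34, so miR827 lay below the lower quartile while under the threshold.

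From dormancy to green-up, the end of winter, miR399b fell, by 1.50 on the log2 scale (-1.62 to -1.38), a 2.83-fold drop. It was the only 1 of 3 members to pass, where 28.8% of tested miRNAs passed as lower. Of 250 tested miRNAs, 49 had a lower change than miR399b. miR395b and miR827 had log2 changes of -0.51 (-0.77 to -0.25) and -0.49 (-0.62 to -0.36), close to each other and near the median of all tested miRNAs, -0.28, with quartiles of -1.18 and 0.59.

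From green-up to jointing the pattern turned round. miR395b fell by 1.90 on the log2 scale (-2.36 to -1.46) and miR827 fell by 1.70 (-1.90 to -1.49), and these 2 of 4 members passed as lower, where 37.8% of the 238 tested miRNAs did. miR399b did not pass, with a log2 change of 0.25 (0.10 to 0.39). The median of all tested miRNAs was -0.70 in this step, and 52 of 238 had a higher change than miR399b. miR2111a-3p rose and was the 1 member to pass as higher, where 16.4% of tested miRNAs did. With its 0 at green-up set to 3 reads, none of the other tested miRNAs had a higher change in this step. That place follows from the 0 and the jointing level and adds nothing to them.

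Over longer spans the falls of miR395b and miR827 added up, while that of miR399b was smaller to jointing than to green-up. From the three-leaf stage to green-up, miR399b (-1.53, -1.65 to -1.40) and miR827 (-1.15, -1.27 to -1.04) passed as lower, against 34.8% of tested miRNAs, and miR395b stayed under the threshold at -0.93 (-1.18 to -0.69). From the three-leaf stage to jointing, miR395b (-2.83, -3.27 to -2.42), miR827 (-2.85, -3.04 to -2.66) and miR399b (-1.28, -1.40 to -1.16) all passed as lower. So did 54.6% of all tested miRNAs, and 16.9% passed as higher, as miR2111a-3p did. From dormancy to jointing the same 3 members passed as lower, where 53.2% of tested miRNAs did, and miR2111a-3p as higher, where 17.2% did. The change of miR399b from the three-leaf stage to jointing differed from the median of all tested miRNAs by -0.03, while miR395b and miR827 differed from it by -1.59 and -1.60.

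**Figure D2:**
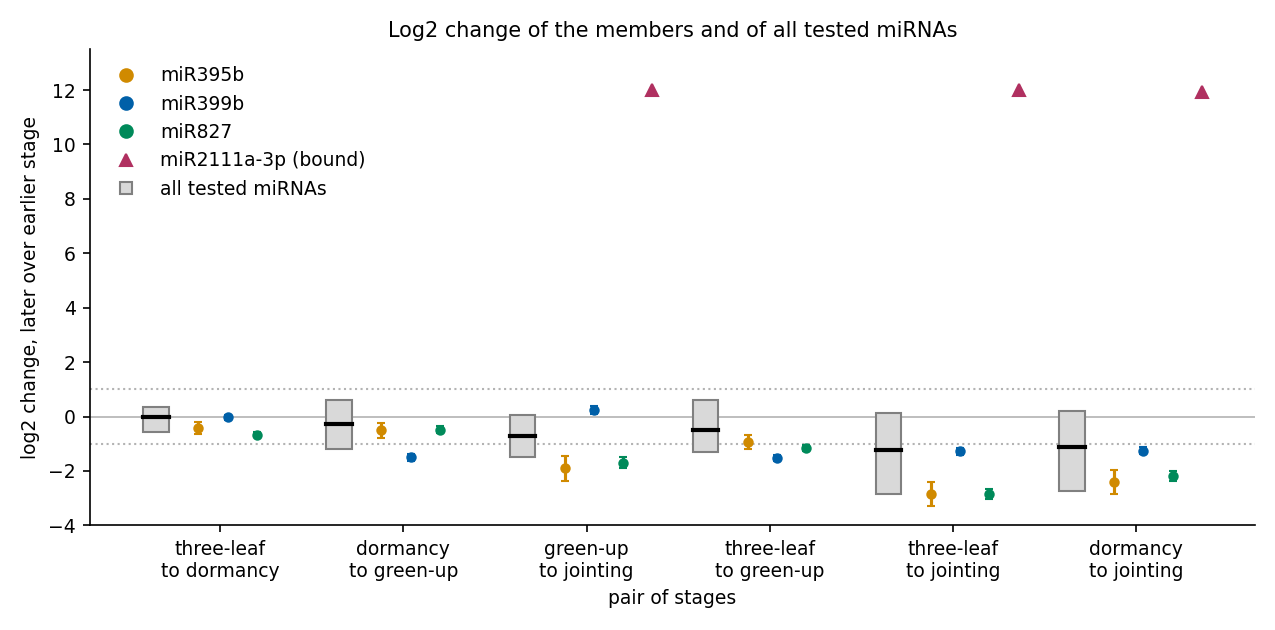
Log2 change, later over earlier stage, of the members in the 6 pairs of stages (circles with exact 95% intervals for counting error), beside the quartiles (grey box) and median (black line) of all tested miRNAs. Triangles show miR2111a-3p with its 0 set to 3 reads, dotted lines mark the 2-fold threshold; miR399b lies lowest of the members at -1.50 from dormancy to green-up, and miR395b and miR827 lie at -1.90 and -1.70 from green-up to jointing.

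How far these changes hold depends on the scaling of the libraries. Scaling to the sum of all listed miRNAs added 0.07, 0.34 and 0.64 to every log2 change in the first, second and last step between neighbouring stages, and scaling by the median ratio of the 200 miRNAs above 0 in every library added 0.04, 0.44 and 0.58. The fall of miR399b to green-up still passed, at -1.16 and -1.06 under these scalings, as did the falls of miR395b (-1.26 and -1.32) and miR827 (-1.06 and -1.12) from green-up to jointing. The step of miR399b from green-up to jointing became 0.89 and 0.83, under the threshold but larger than on the deposited scale, and its change from the three-leaf stage to jointing shrank to -0.23 under both. From dormancy to jointing it shrank to -0.28 and -0.24, so miR399b no longer passed in either pair and 3 members did in place of 4. miR827 no longer passed from the three-leaf stage to green-up (-0.74 and -0.68). From dormancy to green-up the change of miR395b shrank to -0.17 and -0.07, and that of miR827 to -0.15 and -0.05. The fall of these miRNAs in that step thus rested mostly on the deposited scale. The value of miR399b from the three-leaf stage to dormancy turned positive, at 0.05 and 0.01. The share of higher among all calls moved with it, from 37.4% to 49.6% and 55.1% between dormancy and green-up and from 30.2% to 47.2% and 45.8% between green-up and jointing. For the three-leaf stage against green-up it moved from 31.0% to 53.3% and 55.6%, for the three-leaf stage against jointing from 23.7% to 43.0% under both scalings, and for dormancy against jointing from 24.4% to 45.0% and 46.1%.

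**Figure D3:**
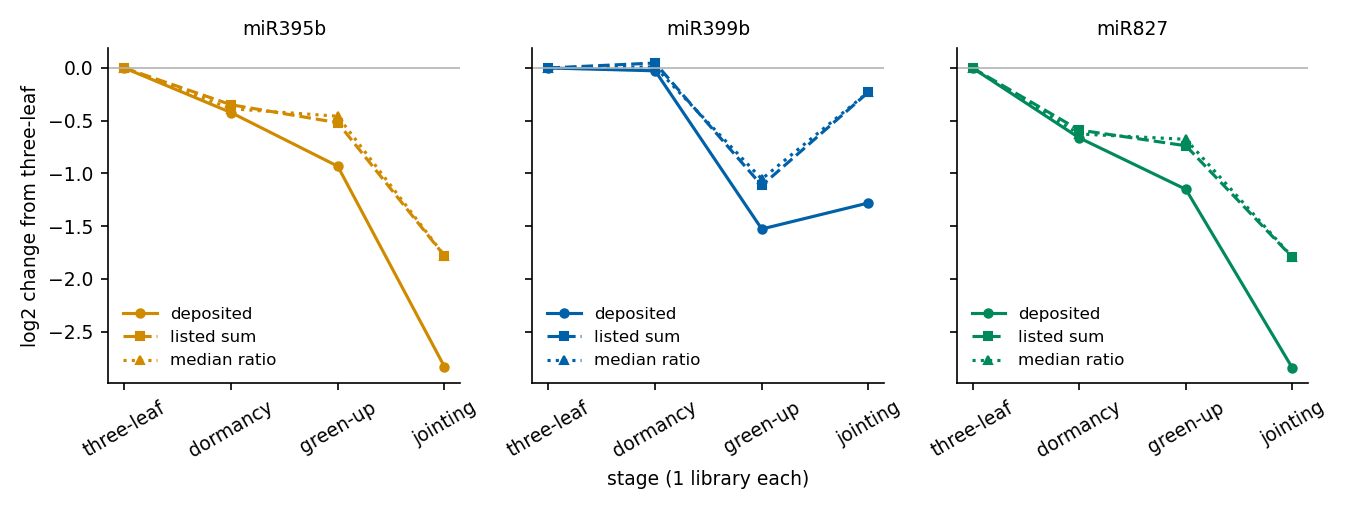
Log2 change from the three-leaf library for miR395b, miR399b and miR827 at the 4 stages (1 library each) under the deposited RPM (solid), scaling to the sum of listed miRNAs (dashed) and median-ratio scaling (dotted). miR399b ends at -1.28, -0.23 and -0.23, and miR395b and miR827 stay low at jointing under all 3.

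Ratios of members within a library do not depend on its scaling. The ratio of miR395b to miR827 reads was 0.206 in the three-leaf library (exact 95% interval 0.184 to 0.229), 0.243 at dormancy (0.212 to 0.277), 0.239 at green-up (0.205 to 0.278) and 0.208 at jointing (0.152 to 0.279). All 4 intervals overlapped, while the RPM of the miRNAs fell 7.12-fold and 7.19-fold from the first to the last of these libraries. The highest ratio was 1.18 times the lowest. Among the 182 other miRNAs above 0 in every library and over 5 RPM in any, miR395b kept the narrowest ratio to miR827, with a log2 range of 0.24, followed by miR9674b-3p (0.28) and miR9674b-5p (0.46). miR399b ranked 77 in this order (1.94). The order leaves out counting error, and the jointing ratio of miR395b to miR827 rests on 54 miR395b reads. Neighbouring places are therefore not told apart. miR9674b-5p had a ratio to miR395b with a log2 range of 0.22. These are descriptions over 4 libraries, and a sulfate and a phosphate miRNA thus stayed closer to each other than either did to miR399b.

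The ratio of miR399b to miR827, the phosphate pair, was 1.08 at the three-leaf stage (1.02 to 1.15), 1.68 at dormancy (1.56 to 1.81), 0.833 at green-up (0.754 to 0.919) and 3.20 at jointing (2.78 to 3.69). No intervals overlapped, and the highest ratio was 3.84 times the lowest. miR827 exceeded miR399b at green-up alone. The ratio of miR395b to miR399b went from 0.190 to 0.145, 0.287 and 0.0649 in the same order of stages, a 4.43-fold range. No correction for ligation or amplification was applied, so a ratio compares libraries and gives no number of molecules.

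**Figure D4:**
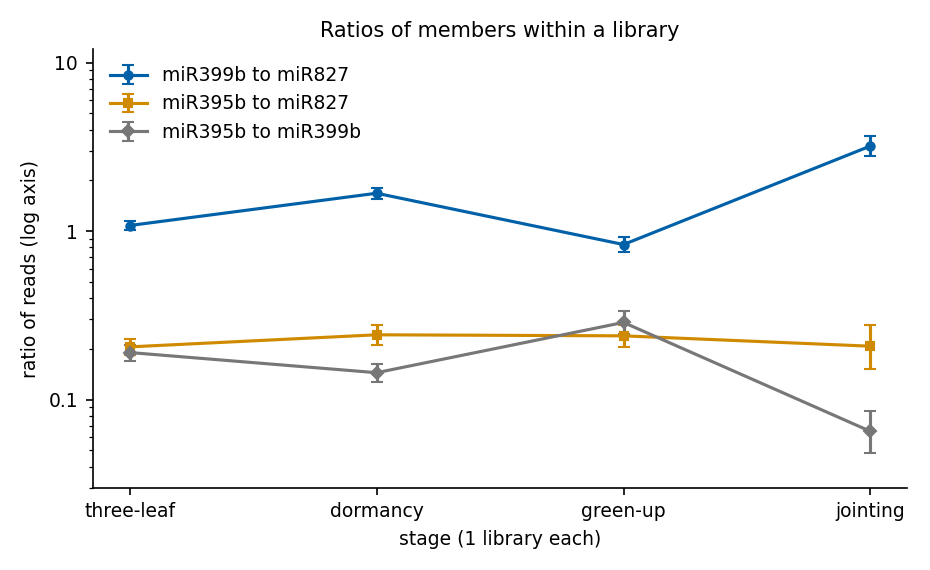
Ratios of reads between members within each library (1 library per stage, log axis), with exact 95% intervals for counting error as bars. The ratio of miR395b to miR827 stays between 0.206 and 0.243, while that of miR399b to miR827 runs from 0.833 at green-up to 3.20 at jointing.

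The miRNAs with the most similar profiles were found by the distance between log2 profiles, each centred on its own mean over the 4 libraries, among 276 other miRNAs over 5 RPM in any library. Nearest to miR395b were miR9674b-5p (distance 0.17), miR827 (0.22) and wheat_miR1559 (0.33). Nearest to miR827 were miR395b (0.22), miR9674b-3p (0.23) and miR9674b-5p (0.35). miR9674b-5p, a wheat miRNA, stood at 5522.4, 4811.3, 2997.5 and 820.7 RPM from the three-leaf stage to jointing. Nearest to miR399b were miR168a-5p (0.14), which acts on ARGONAUTE1 transcripts, miR396b-5p (0.18), which acts on growth-regulating factors, and miR5071 (0.30). miR168a-5p had 36517.2, 32038.5, 12526.9 and 13669.6 RPM, and its ratio to miR399b had a log2 range of 0.16. miR827 was only 91st in the order from miR399b, at a distance of 1.47. By a correlation of log2(RPM + 1) over the 4 libraries, 2 of the nearest 3 were again among the first 3 for miR395b and for miR827, 1 for miR2111a-3p and none for miR399b.

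For miR2111a-3p the zeros fix the order, so its nearest miRNAs are only those next highest among the miRNAs above 0 at jointing alone: miR893, miR1163.2 and miR9569-5p, at 73.3, 47.7 and 45.3 RPM. In all, 20 listed miRNAs were above 0 at jointing and at 0 in the other libraries. Their median was 2.15 RPM, and miR2111a-3p held 67.4% of their sum of 843 RPM. Such on and off listing was not limited to jointing. Of the 100 miRNAs over 100 RPM in any library, 15 were listed at 0 in at least 1 other, and miR2111a-3p, miR8135 (760.8 RPM at dormancy) and miR7512 (117.4 RPM at the three-leaf stage) were above 0 in a single library. What sets these zeros was not tested.

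Other miRNA families that respond to copper or nitrogen supply in Arabidopsis or rice were listed under 13 names: miR397, which acts on laccases, miR398, which acts on copper/zinc superoxide dismutases, miR408, miR528, miR169, which acts on NF-YA transcription factors, and miR393, which acts on auxin receptors. From dormancy to green-up, 6 of the 8 with more than 5 RPM passed as lower, where 28.8% of all tested miRNAs did, and none as higher, with a median log2 change of -2.54 against -0.28 over all tested miRNAs. They belong to miR397, miR398, miR528 and miR169, so some are entries of the same family and not separate families. From green-up to jointing 1 of 8 passed as lower (miR393-5p, from 352.5 to 149.2 RPM), where 37.8% of all tested miRNAs did. Another 3 passed as higher, where 16.4% did, namely miR397a (7.5 RPM before, 15.7 RPM after), miR169g (41.2 and 90.1 RPM) and miR169b-3p (0 and 32.6 RPM). Of these, miR169b-3p is a strand named 3p and was above 0 at jointing alone. These counts are on the deposited scale and were not recomputed under the other scalings, which added 0.64 and 0.58 in this step. The deposited log2 change was -1.24 for miR393-5p and 0.72 for miR398a-3p, which did not pass. Over all tested miRNAs, lower calls in this step went from 90 to 56 and 58, and higher calls from 39 to 50 and 49.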

How the data were processed

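Small RNA libraries of crown tissue at 4 stages were analysed, 1 library per stage. The authors kept small RNA reads, removed those of structural RNAs and repeats with SOAP, assigned known miRNAs by BLASTN against plant miRNAs of miRBase and deposited 1 table of RPM (tags per 1000000 mapped reads, headed TPM), with 1 decimal where the miRNA was known and 2 where its name starts with wheat_miR. Tool versions and genome build are not given in the sources used here.

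Depth was recovered as the number of mapped reads at which the 2-decimal values are whole reads, which held for 53 of 53, 56 of 56, 53 of 53 and 49 of 49 values (at most 37 at any depth over 10000 reads away), within the rounding of the values. Members' reads came from it with an error of about 1 read. A 0 was set to 3 reads for fold changes. Wilson and exact binomial intervals (95%) cover counting error only, since each stage had 1 library. Reads were not collapsed to molecules, so the intervals also leave out error from amplification. The thresholds and intervals were run on simulated reads with counting error only and equal depth. That is the error the intervals assume, so the run checks the computation and not the fit to these libraries. Alternatives varied the library scaling, the treatment of a 0 (including 1 RPM added to all values), the minimum level, the fold threshold and the use of intervals. Named miRNAs are the members, the 3 nearest in profile to each, close sequences and the other nutrient families. miR8135, miR7512 and the miRNAs ranked by ratio to miR827 were named after their values were seen. Members and lists were chosen with earlier results of these data known. Python 3.11.15, numpy 2.4.6, scipy 1.17.1 and matplotlib 3.10.9 were used.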

Additional observations from a re-analysis of the deposited data

How the results depend on the processing

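The 21 log2 changes of members were recomputed under 8 alternatives, 168 values in all. None that passed changed sign, and 14 no longer passed, 8 of these at a 4-fold threshold or a level of 10 RPM and 6 under the 2 scalings. At a 4-fold threshold 0 members passed from dormancy to green-up, 0 from the three-leaf stage to green-up and 1 (miR2111a-3p) from green-up to jointing. Under scaling to the listed miRNAs and by the median ratio 1 member passed in either case from the three-leaf stage to green-up, since miR827 no longer did. Above 10 RPM miR395b was not tested from green-up to jointing. Counts over all miRNAs at a 4-fold threshold were 69, 71, 63 and 117 from dormancy to green-up, green-up to jointing, three-leaf to green-up and dormancy to jointing, against 115, 129, 129 and 176. With a 0 set to the smallest listed reads, the log2 change of miR2111a-3p to jointing was 9.89 from the three-leaf stage, 10.93 from dormancy and 11.28 from green-up. Requiring the whole interval beyond 2-fold changed no member's call. No paired analysis was possible because each stage had 1 library, and for the same reason no replicate could be left out. Depth limits miR395b most, with 54 reads at jointing.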
